A study of Sus scrofa with 6 samples.

Results

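The miRNAs described here are miR-99a, miR-99b, miR-100, miR-125a and miR-125b (ssc-miR-99a, ssc-miR-99b, ssc-miR-100, ssc-miR-125a and ssc-miR-125b on the array), measured in the left atrium (LA) of pigs. They were taken by name from the pig miRNA array, with any arm suffix allowed, and 5 of its 322 probes carry 1 of these names. Each name had 1 probe, none with an arm suffix. In humans and mice the miR-99 and miR-100 genes lie next to let-7 and miR-125 genes in several clusters, which is why these miRNAs form a group.

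Total RNA from the LA of 3 paced and 3 sham animals was labelled with Cy3 and hybridized to 1-colour arrays, with 1 array and no pooling per animal. Paced animals (labelled PAF, for paroxysmal atrial fibrillation) had received bursts of rapid electrical stimulation through a catheter in the right atrium. Sham animals (labelled sham-control) had not been burst-paced, and the tissue was harvested the day after pacing. Esmolol, a beta blocker, was given before pacing, and whether the sham animals received it is not given in the sources used here. The pigs are neonatal piglets according to the labels and Large white animals some months old according to the methods. A piece of whole LA holds muscle, endothelium, fibroblasts and blood, so that fewer cells of a type and less RNA per cell cannot be told apart.

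A miRNA represses messenger RNAs through pairing with its seed, the bases 2 to 8 from its 5′ end, and miRNAs with the same seed are counted as a family. The miR-99 and miR-100 family is known for repressing MTOR, the kinase that couples growth to nutrients, and SMARCA5, a chromatin remodeler. The miR-125 family is the vertebrate relative of lin-4 of the nematode, the founding miRNA, and shares the target LIN28 with let-7. LIN28 in turn blocks the maturation of let-7. Both let-7 and miR-125 accumulate as tissues differentiate.

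The target sequences listed for the probes show how close the members are to each other, which bears on what a probe can tell apart. They are given 5′ to 3′ with the seed in capitals.
miR-99a: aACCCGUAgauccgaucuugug
miR-100: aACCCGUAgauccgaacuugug
miR-99b: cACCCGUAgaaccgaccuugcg
miR-125a: uCCCUGAGacccuuuaaccugug
miR-125b: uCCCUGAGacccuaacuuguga
let-7e: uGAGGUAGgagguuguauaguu
miR-10a-5p: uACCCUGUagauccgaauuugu

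The first 3 share the seed ACCCGUA, which no other probe of the array has, and both miR-125 sequences share CCCUGAG, again with no other probe. miR-99a and miR-100 differ by a single substitution, U16A (the base of miR-99a, the position counted from 1 at the 5′ end, then the base of miR-100). miR-99b differs from miR-99a by 4 substitutions, A1C, U11A, U16C and U21C. The miR-125 sequences are identical over their first 13 bases and differ in length, 23 bases for miR-125a and 22 for miR-125b. The let-7e sequence is shown for the let-7 partners, and miR-10a-5p because it shares an uninterrupted run of 11 bases with miR-100. How much of the signal of a probe came from a near-identical miRNA was not tested.

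In the gene table of the Sscrofa11.1 assembly, MIR99A lies within 10 kb of MIRLET7C, and MIR100 within 10 kb of MIRLET7A-1. MIR99B, MIRLET7E and MIR125A lie within 10 kb of each other. MIR125B-1 lies within 100 kb of MIR100 and MIRLET7A-1 but not within 10 kb. Of the genes that can give the mature miR-125b, only MIR125B-1 was found in the table, and a gene such as MIR125B-2 was not analysed here. The mature let-7a can come from 2 genes of the table, MIRLET7A-1 and MIRLET7A-2, so its probe does not report on the MIR100 neighbourhood alone.

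The background of an array was taken from its 786 empty spots, and a probe counted as well above it when the median of its 9 repeat spots was more than 3 SD of the empty spots higher. The empty-spot medians of the paced arrays, from 242.5 to 399 scanner units, were above those of the sham arrays, from 64.7 to 214.1. Between 104 and 175 probes were well above background on an array, and 104 on all 6. Of the probes for markers of cardiac and striated muscle (miR-1, miR-133a, miR-133b, miR-208b and miR-499, both arms where present), 5 of 7 were well above background on all 6 arrays, and that of the liver miRNA miR-122 on none. Of 17 probes for markers of endothelium, smooth muscle, fibroblasts, red cells and leukocytes, 3 reached an unadjusted p of 0.05 between the groups, where 10.6% of all probes did, and 0 an adjusted p of 0.05 in limma. These were miR-126-5p of endothelium, with a log2 difference of 0.37 but well above background on 0 arrays, miR-143-3p of smooth muscle, at -0.32, and miR-486 of red cells, at -0.70, the lowest difference on the array. On paced replicate 1 miR-486 was not well above background. The paced mean was lower for all 4 smooth muscle probes and for 2 of the 3 red cell probes, with miR-451 at -0.37 (limma, unadjusted p = 0.113). The part of such cells in the members' values was not tested. On the leading principal component of the detected probes, paced replicate 1 lay at -2.09 and the other paced animals at 1.89 and 1.29. The sham animals lay between. The differences of the members and of the let-7 partners are therefore also given without paced replicate 1.

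Every member was well above background on each of the 6 arrays. Their scanner signal, with the background still included, was from 3.39 to 252 times the empty-spot median of the same array. The smallest margin among the members was 18.9 SD of the empty spots above their median. For miR-99b the scanner signal of the sham animals (replicates 1 to 3) was 2255, 1390 and 1500, and that of the paced animals 1351, 1756 and 1542. For miR-125b it was 21531, 16303 and 18303 in the sham and 13160, 17750 and 15139 in the paced replicates. Sham replicate 1 gave the highest and paced replicate 1 the lowest scanner signal for each of the 5 members, before any normalization. Signals of different probes depend on how well each probe binds as well as on the amount of miRNA, and are not compared with each other as amounts here.

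No member differed between paced and sham animals beyond the spread between animals. After background correction with normexp, quantile normalization between arrays and limma over all 322 probes, 0 of the 5 members reached an unadjusted p of 0.05, where 34 probes (10.6%) of the array did (3.42% of all probes higher and 7.14% lower in paced animals), and 0 reached an adjusted p of 0.05, as did 0 (0%) of all probes. The methods' t-test on the same values also gave 0 members at an unadjusted p of 0.05. With 5 members, a count of 0 lies near the share on the array and is not a result about them. The paced and sham values overlapped for all 5 members, and did not overlap for 17.4% of all probes. Among the 104 probes detected on all 6 arrays, as the members were, these shares were smaller. There 4 probes reached an unadjusted p of 0.05 in limma and the groups did not overlap for 5, so the members are not set apart. The median difference of the members was -0.01 on the log2 scale against 0.00 for all probes, and their median absolute difference was 0.07 against 0.09 for all probes and 0.08 for the 104 detected on all arrays.

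miR-99a, which represses MTOR and maps beside let-7c, had normalized log2 signals of 12.95, 12.60 and 12.81 in the sham animals (replicates 1 to 3), against 12.88, 12.72 and 12.72 in the paced animals. All paced values lay inside the range of the sham values. The sham mean was 12.78 ± 0.17 (SD, n = 3) and the paced mean 12.77 ± 0.09 (SD, n = 3), a log2 difference of -0.01 (SE 0.11, limma, adjusted p = 0.968). As a ratio of paced to sham this is 0.992, with a 95% interval from 0.833 to 1.18. Without paced replicate 1 the log2 difference was -0.07.

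miR-100, a single base away from miR-99a, had normalized log2 signals of 12.33, 12.18 and 12.32 in the sham and of 12.15, 12.49 and 12.39 in the paced replicates. The lowest and the highest value were both those of paced animals. The mean went from 12.27 ± 0.08 (SD, n = 3) to 12.34 ± 0.17 (SD, n = 3), a log2 difference of 0.07 (SE 0.10, limma, adjusted p = 0.838) and a ratio of 1.05 with a 95% interval from 0.885 to 1.25. This value depended on single paced animals. Without paced replicate 1 the log2 difference of miR-100 was 0.16 (SE 0.08, limma, adjusted p = 0.290), and without paced replicate 2 it was -0.01.

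miR-99b, the family member whose gene lies with those of let-7e and miR-125a, had normalized log2 signals of 10.50, 10.58 and 10.63 in the sham and of 10.57, 10.41 and 10.51 in the paced replicates. Paced replicate 2 was the lowest and sham replicate 3 the highest. The sham mean was 10.57 ± 0.06 (SD, n = 3) and the paced mean 10.50 ± 0.08 (SD, n = 3). The log2 difference was -0.07 (SE 0.07, limma, adjusted p = 0.750), a ratio of 0.950 with a 95% interval from 0.842 to 1.07. Without paced replicate 1 it was -0.11.

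Single repeat spots took part in the values of the miR-99 probes. In paced replicate 2, 1 of the 9 miR-99a spots read 3430 scanner units while the other 8 read from 7010 to 9015, and 1 of the 9 miR-99b spots read 637 while the other 8 read from 1673 to 1994. These 2 spots were neighbours on the array, in column 10 of rows 120 and 121. In sham replicate 2, 1 miR-100 spot read 2591 against 3910 to 5153 for the other 8. With spots under 0.7 times the median of their probe left out, a setting chosen after the values were seen, the log2 differences of miR-99a, miR-99b and miR-100 became 0.03, -0.0045 and 0.04. The difference of miR-99a turned its sign and that of miR-99b shrank to almost nothing. With these spots kept, leaving out 1 animal also moved the log2 difference of miR-99a, between -0.10 and 0.068, so its direction did not depend on the spots alone.

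miR-125a, of the family that represses LIN28, had normalized log2 signals of 12.44, 12.79 and 12.63 in the sham and of 12.55, 12.78 and 12.83 in the paced replicates. Replicate 1 was the lowest animal of each group. The mean went from 12.62 ± 0.17 (SD, n = 3) to 12.72 ± 0.15 (SD, n = 3), with a log2 difference of 0.10 (SE 0.12, limma, adjusted p = 0.792). The ratio of 1.07 had a 95% interval from 0.883 to 1.30, the widest of the 5. Without paced replicate 1 the log2 difference was 0.19 (SE 0.11, limma, adjusted p = 0.361), and without sham replicate 1 it was 0.01.

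miR-125b had normalized log2 signals of 14.02, 14.05 and 14.02 in the sham and of 14.00, 13.99 and 14.03 in the paced replicates. The groups overlapped, with paced replicate 3 above sham replicates 1 and 3. The sham mean was 14.03 ± 0.02 (SD, n = 3) and the paced mean 14.01 ± 0.02 (SD, n = 3). The log2 difference was -0.02 (SE 0.06, limma, adjusted p = 0.910), a ratio of 0.985 with a 95% interval from 0.894 to 1.09. Without paced replicate 1 it was -0.02. The SD within the groups was 0.02. Quantile normalization gives equal values to equal ranks, and miR-125b held rank 3 or 4 on every array. With each array divided by its own median of detected probes instead, its SD within the groups was 0.24.

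**Figure D1:**
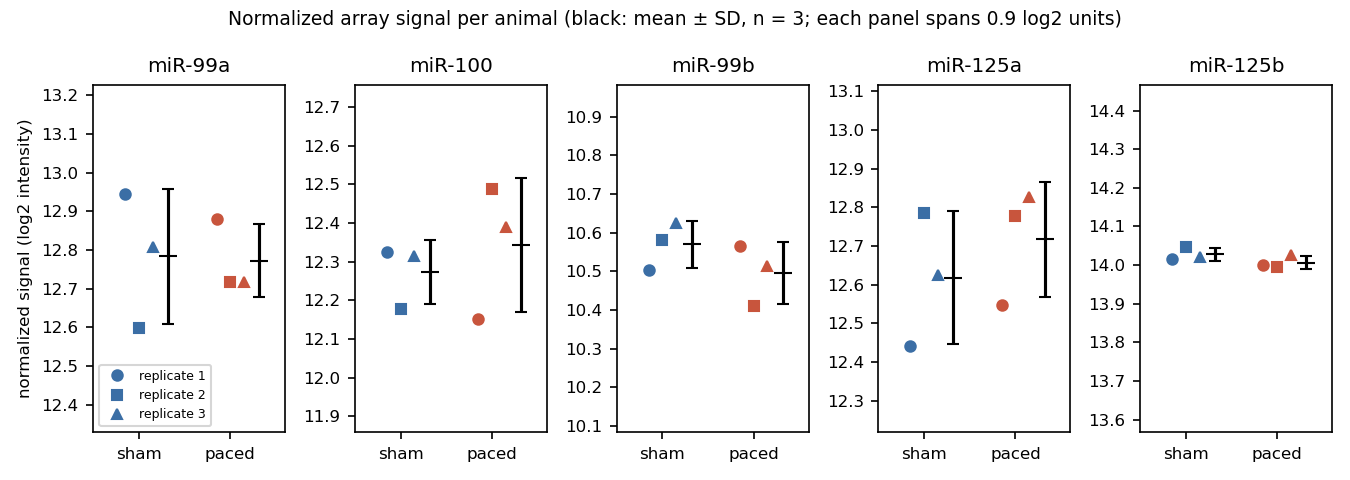
Normalized log2 signal (vertical axis) of the 5 members in each sham (blue) and paced (red) animal, with markers for the replicate number and black bars for the group mean ± SD (n = 3). Paced and sham points overlap in every panel, and miR-125b shows the smallest spread, with an SD within the groups of 0.02.

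Over the 5 members the intervals ran from a ratio of 0.833, the lower end for miR-99a, to 1.30, the upper end for miR-125a. They were wider when limma was run only on the 126 probes that passed the background limit throughout at least 1 group, with an SE of 0.12 for miR-99a, 0.09 for miR-99b, 0.12 for miR-100, 0.13 for miR-125a and 0.08 for miR-125b. The intervals may be too narrow. On simulated data with an equal spread for every probe, those of unchanged probes with high signal held the true value less often than their nominal level. Intervals of changed probes, and spreads as unequal as those of the members, were not tried there. The intervals given here hold for signals normalized to a common distribution. A change shared by most miRNAs, in the amount of miRNA per unit of total RNA for instance, would not be seen in them.

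**Figure D2:**
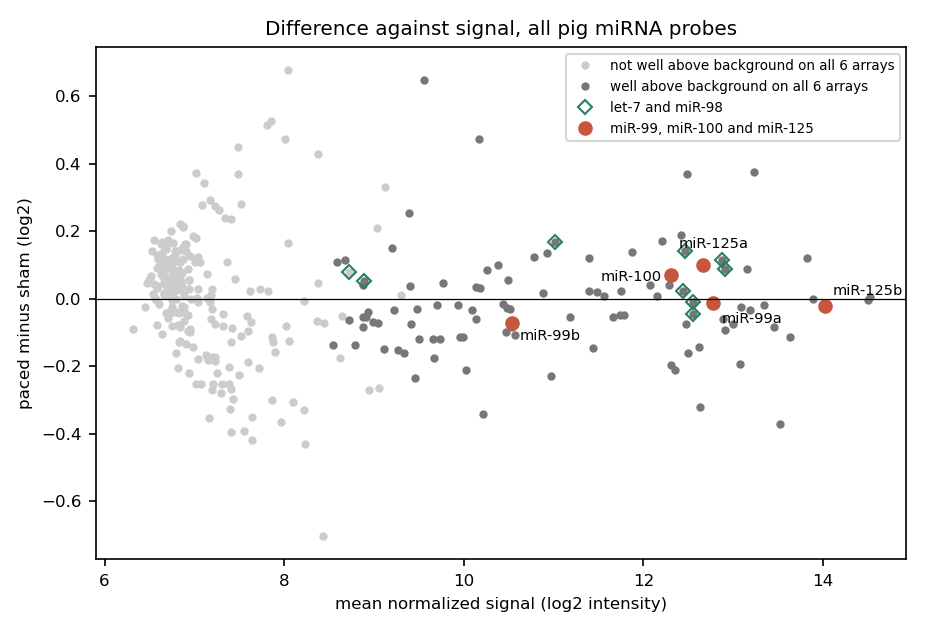
Difference between paced and sham means (vertical axis, log2) against the mean normalized signal (horizontal axis, log2 intensity) for all 322 probes, with the 5 members in red and let-7 and miR-98 probes as green diamonds. The members lie between -0.07 and 0.10, while the probes of the array run from -0.70 to 0.68.

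Each value is a mean over 9 repeat spots, so its technical error is smaller than the SD of single spots given here. On the log2 scale of background-subtracted signals, the SD of single repeat spots had a median of 0.11 over the 5 members and 6 arrays, and it reached 0.66 for miR-99b in paced replicate 2, the array with the low spot. The SD between animals within the groups was 0.14 for miR-99a, 0.14 for miR-100, 0.07 for miR-99b and 0.16 for miR-125a, against a median of 0.16 over the 104 probes detected on all arrays. In the authors' processed values, which are intensities on a linear scale, the group means of miR-99a were 7037 ± 701 and 7003 ± 303 (SD, n = 3 in sham and in paced animals). Those of miR-99b were 1418 ± 74.1 and 1415 ± 92.2. For miR-100 they were 4800 ± 340 and 5069 ± 718, with the wider spread in the paced group there as well.

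The let-7 partners of the clusters showed no difference past the threshold either. let-7a, like all let-7 miRNAs a repressor of LIN28 and of growth genes, had a log2 difference of 0.09 (SE 0.11, limma, adjusted p = 0.792), and let-7c one of 0.02 (SE 0.13, adjusted p = 0.963). Of these partners let-7e had the largest, 0.17 (SE 0.17, adjusted p = 0.750), and also the largest SD within the groups, 0.25. Without paced replicate 1 these differences were 0.13, 0.05 and 0.26. Among the 9 let-7 and miR-98 probes together, 8 were well above background on all 6 arrays. At an unadjusted p of 0.05 in limma there were 0, where 10.6% of all probes passed. The paced mean was higher for 7 and lower for 2, with a median difference of 0.08. Over all probes it was higher for 165 and lower for 157, and over the 104 detected on all arrays for 41 and 63. No test was made of these counts. The other 6 probes of that list ran from -0.05 to 0.14.

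The miR-10 probes were dim. miR-10a-5p and miR-10b share runs of bases with the miR-99 and miR-100 sequences but carry another seed, and miR-10a-3p is the opposite arm. miR-10a-3p was well above background on 0, miR-10a-5p on 1 and miR-10b on 2 of the 6 arrays, and their log2 differences were 0.13, 0.03 and 0.11 with unadjusted p values from limma of 0.135, 0.786 and 0.619. On paced replicate 1 the miR-100 probe read 8.29 times the empty-spot median and no miR-10 probe was well above background. That array had the highest empty-spot median, 399, and the fewest probes above background, 104. Signal shared between the miR-100 and miR-10 probes was not tested.

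Correlations over the 6 animals were computed for gene neighbours and for the other pairs of members and let-7 partners. In the cluster of miR-99b, let-7e and miR-125a, the signals of let-7e and miR-125a went together over the 6 arrays, with a Pearson correlation of 0.882, and with 1 animal left out it stayed between 0.736 and 0.923. miR-125a also went with let-7a, at 0.811, and with let-7c, at 0.784, which are not in its cluster. In the same cluster miR-99b correlated with let-7e at 0.0886 and with miR-125a at -0.214. miR-99a ran opposite to its neighbour let-7c, at -0.789, but also to let-7e and let-7a, which are not its neighbours, at -0.720 and -0.676. miR-100 with its neighbour let-7a gave 0.0413. These values describe 6 arrays that share their normalization and are given with no test.

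In normalized signals, miR-99a and miR-125a, whose genes were not within 100 kb of each other in the table, ran opposite to each other. This was the strongest such course among the members, with a correlation of -0.918 over the 6 arrays. It was from -0.989 to -0.853 with 1 animal left out, -0.936 in the authors' processed values, and -0.771 with the low spots left out. In each group, the animal lowest in normalized miR-125a, replicate 1, was the highest in normalized miR-99a. Before normalization both had their highest scanner signal in sham replicate 1 (11200 for miR-99a and 8046 for miR-125a). Both were lowest in paced replicate 1 (5717 and 4651). The other members had the same highest and lowest arrays, so scanner levels across arrays cannot show whether these miRNAs ran opposite. Within arrays, miR-99a read below miR-125a in sham replicate 2 (6175 and 6908) and paced replicate 3 (6309 and 6814). On the other arrays it read above miR-125a. Such an order does not compare amounts, but it changed between arrays before any normalization. The part of the normalization in the opposite course was not tested. The correlation of miR-99b with miR-100 was -0.728, and from -0.933 to -0.397 with 1 animal left out. It was -0.876 in the authors' processed values but 0.117 with the low spots left out, so its sign differed between settings. Among the let-7 probes the correlation was 0.979 for let-7a and let-7e and 0.933 for let-7a and let-7c. Their sequences differ by 1 base in each case, so a shared signal between these probes cannot be told apart from a shared level.

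**Figure D3:**
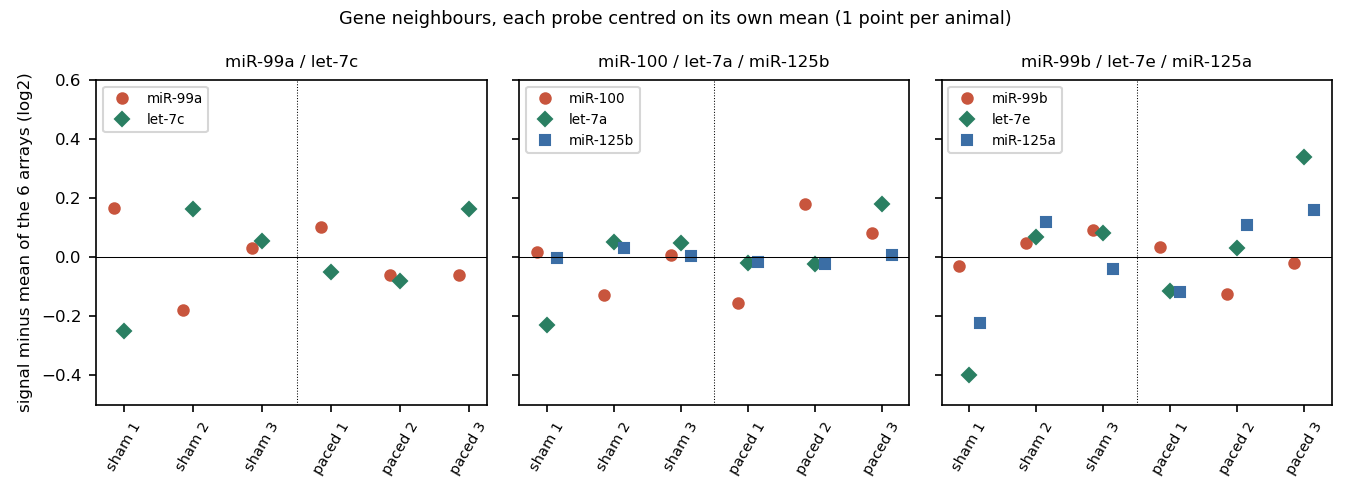
Normalized log2 signal of each probe minus its own mean over the 6 arrays (vertical axis) by animal (horizontal axis), in 1 panel for each group of gene neighbours. let-7e and miR-125a are both lowest in sham replicate 1 and both highest in paced replicate 3, while miR-99a in the first panel is highest in sham replicate 1, where let-7c is lowest.

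Whether 2 probes changed unequally with pacing was asked with the difference between their log2 signals within each array, for 11 pairs of cluster partners and relatives. An exact two-sided permutation test of 3 animals against 3 cannot give a p below 0.1, so none of these could have passed 0.05. For miR-99a minus miR-100, the within-array difference was 0.62, 0.42 and 0.49 in the sham and 0.73, 0.23 and 0.33 in the paced replicates. The lowest and the highest value were again from paced animals, and the shift of -0.08 between the group means was reached by many other labellings of the 6 arrays (exact permutation test, p = 0.7, adjusted over the 11 pairs 0.963). Without paced replicate 1 this shift was -0.23.

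The pair that shifted most was miR-99b minus let-7e, from a mean of -0.36 ± 0.22 (SD, n = 3) in sham to -0.60 ± 0.25 (SD, n = 3) in paced animals. The shift of -0.24 left the groups overlapping (exact permutation test, p = 0.4, adjusted 0.963), and was -0.37 without paced replicate 1 and -0.17 without the low spots. For miR-99b minus miR-125a the shift was -0.17 (exact permutation test, p = 0.3, adjusted 0.963), and for let-7e minus miR-125a, the partners that went together, it was 0.07 (exact permutation test, p = 0.6, adjusted 0.963). Between the miR-125 relatives, miR-125a minus miR-125b shifted by 0.12 (exact permutation test, p = 0.4, adjusted 0.963). Without paced replicate 1 the shift was -0.30 for miR-99b minus miR-125a, 0.07 for let-7e minus miR-125a and 0.21 for miR-125a minus miR-125b. Paced and sham values overlapped for all 11 pairs.

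**Figure D4:**
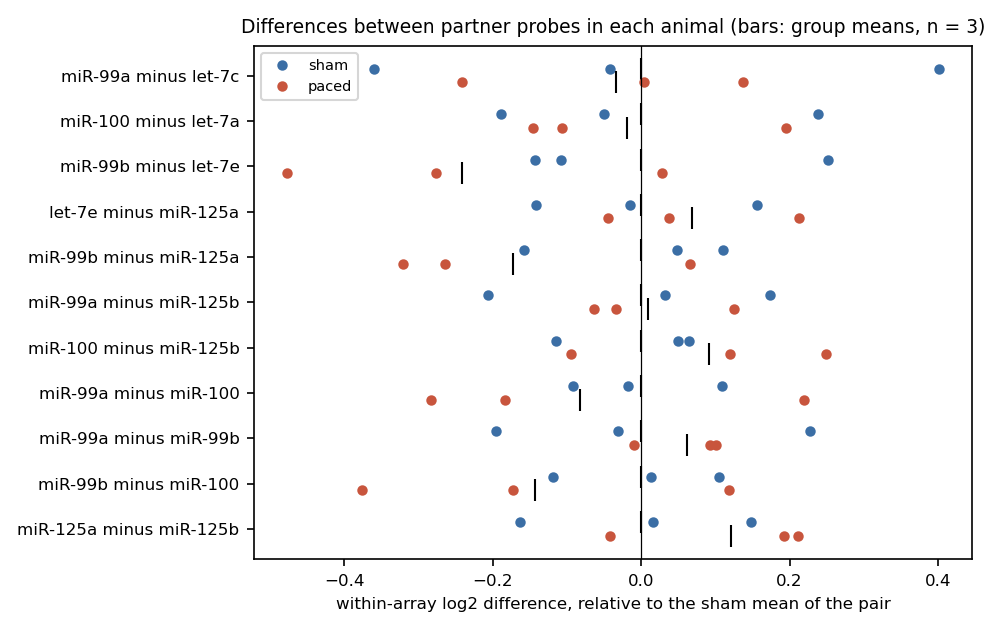
Within-array log2 difference between 2 probes in each animal, relative to the sham mean of that pair (horizontal axis), for the 11 pairs, with sham in blue, paced in red and group means as bars. The groups overlap for every pair, and the mean of the paced animals lies farthest from that of the sham animals for miR-99b minus let-7e, at -0.24.

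The direction of some of these small differences turned with the normalization. miR-125b was higher in paced animals with cyclic loess and in the authors' processed values, at 0.06 and 0.02, while miR-99a and miR-99b were lower under each normalization tried. With no normalization between arrays all 5 members were lower in paced animals, from -0.34 for miR-99a to -0.21 for miR-100 and miR-125a, while the median of all 322 probes rose by 0.27. Under scaling by the detected probes' median, the median of all probes shifted to 0.53 and the members ran from -0.08 to 0.05. In both settings every member lay below the median of all probes, and the paced arrays also had the higher empty-spot signal. The part of that signal in the shift was not tested. Across all ways of processing, the number of members at an unadjusted p of 0.05 was 0. The share of the array ran from 5 of 126 probes with the dim probes left out to 191 of 322 under scaling. The count of 0 therefore does not mean the same in each setting.

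**Figure D5:**
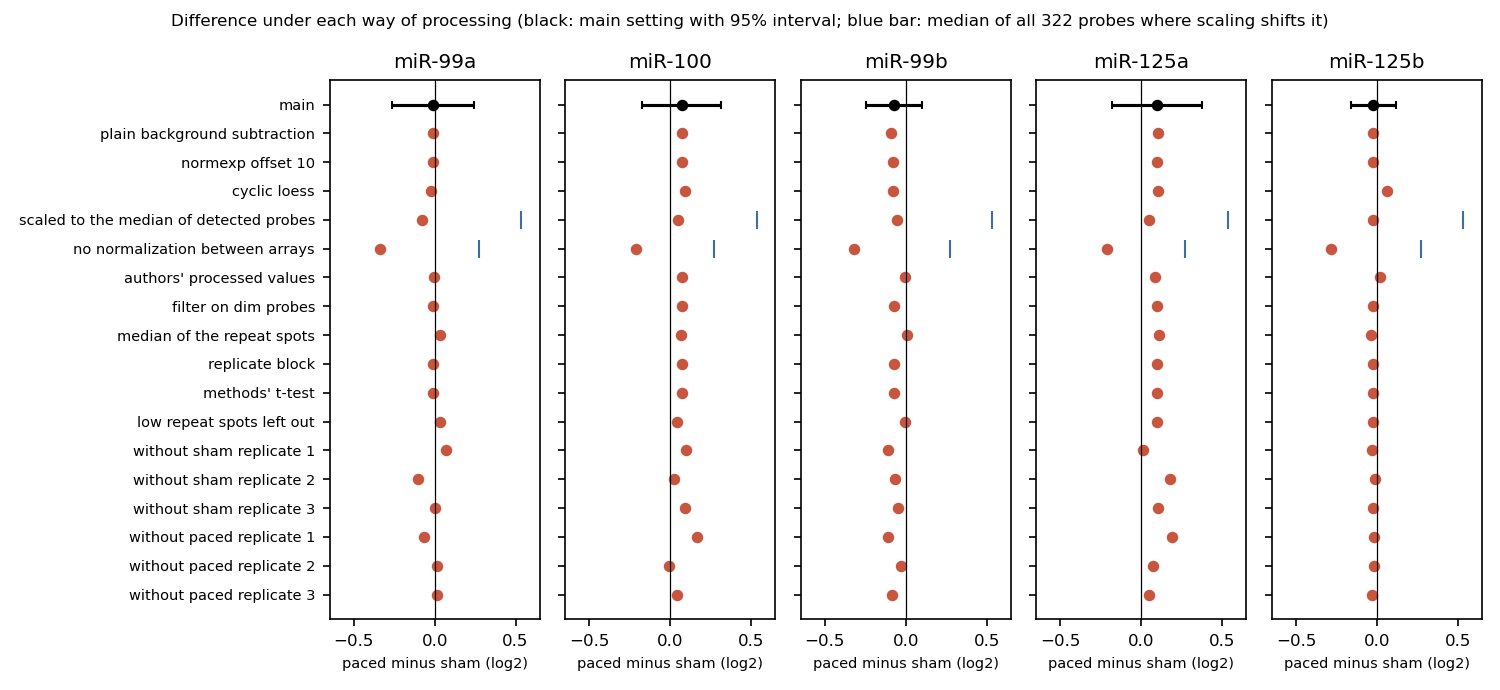
Difference between paced and sham means (horizontal axis, log2) of each member under each way of processing (rows), with the main setting in black with its 95% interval and the median of all 322 probes as a blue bar for the 2 settings that shift it. Apart from the values without normalization, which are all negative, the points lie between -0.11 and 0.19.

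By likeness over the 6 arrays to the mean of the 5 centred members, the closest of the 99 other probes detected on all arrays were miR-1 (Pearson correlation 0.921), miR-30e-3p (0.920), let-7f (0.877), miR-1285 (0.855) and miR-499-5p (0.818). miR-1 and miR-499-5p are miRNAs of striated and cardiac muscle. The other muscle markers detected on all arrays, miR-133a-3p, miR-133a-5p and miR-133b, were not among these 5. The mean of the members itself moved little, from -0.03 in paced replicate 1 to 0.03 in paced replicate 3 on the log2 scale. It averages members that ran opposite to each other, such as miR-99a and miR-125a, and is not a course that all of them shared. These 5 were picked as the highest of 99 correlations over 6 arrays, and no test was made. Leaving out 1 animal moved the correlation with miR-1 to between 0.864 and 0.989.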

How the data were processed

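For each array the authors deposited the median pixel intensity of every spot, not log-transformed, not normalized and with background still in it. Arrays were scanned with a GenePix instrument and digitized with Array-Pro, per the methods. A table of processed intensities, 1 for each probe and array, was also deposited by the authors. These are background-subtracted and normalized, by steps not given in the sources used here, and served only as an alternative, in log2 with values under 1 set to 1.

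Spot values were corrected with normexp (offset 50) in limma 3.58.1 under R 4.3.3. The 2898 miRNA spots were then quantile-normalized, put in log2 and averaged per probe. Groups, from the sample titles, were compared with lmFit and eBayes over 322 probes, with p values adjusted after Benjamini and Hochberg and the methods' t-test as an alternative. Precision is limited by how few arrays there are. The p values set a group difference against the spread between animals, which limma moderates with the spread of all probes. The steps were tested on simulated data with an equal spread for every probe. There the intervals of unchanged probes with high signal held the true value less often than their nominal level. Figures were drawn with matplotlib 3.10.9.

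The members and lists were chosen with earlier results of these data known. Named miRNAs are the members, the let-7 partners, the miR-10 probes and the 5 probes most like the members. Sequences are the array's targets, and gene neighbours come from RefSeq's Sscrofa11.1 table, of which no coordinates are printed. The qPCR and protein data were not analysed here.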

Additional observations from a re-analysis of the deposited data

How the results depend on the processing

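No member and no let-7 or miR-98 probe reached an unadjusted p of 0.05 under any of the alternatives run, which were another background correction, normexp offset or normalization, the authors' processed values, the dim probes left out, repeat spots summarised by their median, low repeat spots left out (chosen after seeing the data), a replicate block, the methods' t-test, and leaving out each animal. The lowest adjusted p of a member was 0.290, for miR-100 without paced replicate 1. Over the whole array, the count at an unadjusted p of 0.05 went from 34 to 191 under scaling to the detected probes (182 adjusted), 15 with no normalization between arrays, 5 of 126 with the dim probes left out, 19 without sham replicate 2, 21 without paced replicate 3 and 67 without paced replicate 1 (9 adjusted).

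Correlations of same-numbered deviations from the group means over 104 probes were 0.172, -0.0142 and 0.211. Those of differently numbered animals ran from -0.236 to 0.0906. Deviations from means of 3 animals depend on each other, so these values cannot decide whether the replicate numbers pair the animals. With the replicate block the difference of miR-125a was 0.10 (limma, adjusted p = 0.662), and 33 probes reached an unadjusted p of 0.05.

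Signs of these small differences turned in several settings, and the cause was not tested. With no normalization between arrays the log2 difference was -0.25 for let-7a, -0.28 for let-7c, -0.10 for let-7e, -0.21 for miR-100 and -0.21 for miR-125a. For let-7c it was -0.015 under scaling and -0.036 in the processed values. For miR-125b it was 0.022 in the processed values and 0.061 with cyclic loess. With the median of the repeat spots it was 0.033 for miR-99a and 0.0069 for miR-99b, and 0.033 for miR-99a with the low spots left out. Within arrays, miR-100 minus let-7a became 0.016 with cyclic loess, 0.033 under scaling or no normalization and 0.070 in the processed values. The shift of miR-99a minus let-7c was 0.033 in the processed values and 0.012 without the low spots. For miR-99a minus miR-125b it was -0.083 with cyclic loess, -0.053 under scaling or no normalization and -0.025 in the processed values, and for miR-99a minus miR-99b -0.019 under scaling or no normalization.

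The SD within groups, with no normalization, was 0.45 for miR-100, 0.36 for miR-99a, 0.30 for miR-99b and 0.20 for miR-125b. For miR-125b it was 0.042 with cyclic loess, 0.24 under scaling and 0.046 in the processed values.

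Leaving out 1 animal moved the difference from -0.0016 to 0.14 for let-7a, -0.10 to 0.10 for let-7c, 0.02 to 0.26 for let-7e, -0.0070 to 0.16 for miR-100, 0.01 to 0.19 for miR-125a, -0.03 to -0.01 for miR-125b, -0.10 to 0.068 for miR-99a and -0.11 to -0.03 for miR-99b. Within arrays the range was -0.0022 to 0.15 for let-7e minus miR-125a, -0.13 to 0.10 for miR-100 minus let-7a, -0.21 to 0.17 for miR-99a minus let-7c, -0.23 to 0.023 for miR-99a minus miR-100, -0.091 to 0.098 for miR-99a minus miR-125b and -0.035 to 0.18 for miR-99a minus miR-99b.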
